A study of Arabidopsis thaliana with 7 samples.

Results

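Nuclear tRNA genes of Arabidopsis thaliana were taken as all genes with the biotype tRNA on chromosomes 1 to 5 in the RefSeq annotation of TAIR10. There were 625 of them among 37899 annotated genes and pseudogenes, with 27444 protein-coding genes. Each tRNA gene was extended by 200 bp on both sides and scored for an overlapping ChIP-seq peak. The genes were then split by whether the start site (TSS) of a protein-coding gene lay within 500 bp, and by whether they stood alone or in a cluster of genes at most 1000 bp apart. Of the 625 genes, 372 had no protein-coding TSS within 500 bp and 253 had one, and 150 were clustered in 19 clusters while 475 were single.

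The study immunoprecipitated chromatin with an antibody to GFP (ab290) from whole seedlings of the Col0 cultivar that carried pE2FA-E2FA-GFP, pE2FB-E2FB-GFP, pE2FC-E2FC-GFP or pRBR-RBR-GFP, each a GFP fusion under its native promoter. The seedlings were 12 days old by the labels and received no treatment, and each deposited list holds the peaks of 1 library. The methods of the study give a different age. E2FA, E2FB and RBR have 2 lists each and E2FC has 1, so 7 lists were scored, 4 of replicate 1 and 3 of replicate 2. No library of input DNA or of plants without GFP was analysed here, and no test between the proteins was run.

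E2FA, E2FB and E2FC are the canonical E2F transcription factors of Arabidopsis, and RBR is the plant retinoblastoma protein that binds them and restrains the genes of DNA replication and cell division. tRNA genes are short, are read by RNA polymerase III and carry their promoter inside the gene. The A box and the B box within the gene are bound by the factor TFIIIC, which places TFIIIB just upstream of the gene and thereby brings in the polymerase, and a run of T ends the transcript. In mammals the retinoblastoma protein is known as a repressor of RNA polymerase III.

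The members are short, repeated and alike in sequence. The median gene was 73 bp long (range 69 to 90 bp), which made a median window of 473 bp, and 81 genes had an intron. The genes carried 47 anticodons for 20 amino acids, and 500 of the 625 had at least 1 other nuclear tRNA gene of identical sequence, up to 34 copies of a single sequence. Since short reads from repeats cannot be placed, the share of 76-base words in each extended window that occur once in the nuclear and organelle genomes was counted. In 517 genes, 82.7% of all, at least 90% of the words were unique, and in the other 108 they were not. Equal windows of 473 bp that tile the 5 chromosomes reached this limit in 91.8% of cases.

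The internal promoter is shown for 4 genes to which the results return, with 30 bases on each side of the gene, 5′ to 3′ on the strand of the gene. Capitals mark the A box and the B box. AT5G46325 (tRNA-Leu, anticodon TAG; RefSeq TAIR10, chr5:18790278-18790417, plus strand) had a peak in all 7 lists away from any protein-coding TSS. Among genes without a nearby TSS, AT1G04320 (tRNA-Gly, anticodon GCC; chr1:1158993-1159123, plus strand) had the 3 replicate 2 summits closest to its midpoint. AT3G27845 (tRNA-Pro, anticodon TGG; chr3:10324609-10324740, plus strand) had a strong peak in all 7 lists beside a protein-coding TSS, and AT2G33900 (tRNA-Pro, anticodon TGG; chr2:14351329-14351460, plus strand) lies in a proline array and had a peak in no list.
AT5G46325: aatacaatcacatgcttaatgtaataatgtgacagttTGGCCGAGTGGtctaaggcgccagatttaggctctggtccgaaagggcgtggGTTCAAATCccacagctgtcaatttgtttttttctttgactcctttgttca
AT1G04320: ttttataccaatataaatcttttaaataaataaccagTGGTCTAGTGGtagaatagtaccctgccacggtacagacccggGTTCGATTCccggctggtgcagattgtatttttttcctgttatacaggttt
AT3G27845: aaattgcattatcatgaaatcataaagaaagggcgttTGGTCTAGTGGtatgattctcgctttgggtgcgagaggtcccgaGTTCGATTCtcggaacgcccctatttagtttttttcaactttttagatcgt
AT2G33900: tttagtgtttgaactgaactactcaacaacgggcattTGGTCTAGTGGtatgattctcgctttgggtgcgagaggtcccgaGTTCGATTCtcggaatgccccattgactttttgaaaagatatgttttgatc

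The B box (GTTCNANNC, searched on the strand of the gene) was found in 573 of the 625 tRNA genes (91.7%) and an A box pattern in 563 (90.1%). In gene-sized windows across the chromosomes, read on both strands, they were found in 2.34% and 9.23%. The bases CAA, which often precede plant tRNA genes, stood within 10 bases before 72.6% of the genes, against 17.9% of the windows, and a TTTT run stood within 25 bases after 92.5%, against 20.3%. The B box was present in 90.4% of the 167 genes with a peak in all 7 lists and in 90.1% of the 142 genes with a peak in no list. The A box was present in 94.0% and 74.6% of the same groups, CAA in 82.0% and 62.7%, and the E2F consensus described further on in 24% and 5.63% of their extended windows. Since 81 of the 142 genes come from 1 array of near-identical copies, these shares describe few distinct sequences.

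Peaks were found at tRNA genes in every list. The share of the 625 tRNA genes with a peak in replicate 1 was 73.6% for RBR, 64.3% for E2FB, 62.4% for E2FA and 30.6% for E2FC. In replicate 2 it was 71.8% for RBR, 68.3% for E2FB and 64.8% for E2FA. Across all windows of the same length, the share with a peak in replicate 1 was 28.8% for RBR, 26.4% for E2FB, 32.1% for E2FA and 22.1% for E2FC, and in replicate 2 it was 28.8% for RBR, 24.2% for E2FB and 21.4% for E2FA. The tRNA genes lay above this background in all 7 lists, least so for E2FC. The median share over the lists was 64.8% for tRNA genes and 63.9% (41.6% to 68.7%) for windows of the same length at protein-coding TSSs. With peaks of fold enrichment over 3 and q under 0.01 alone, the median share of tRNA genes with a peak was 0.480%. The study defined its target genes by these limits. The share of all windows at these limits was not counted, so the comparison with the background rests on the full lists. The replicates differed in fold enrichment. It passed 3 at 0 to 3 tRNA genes in the replicate 1 lists, where it is averaged over a broad peak. In the replicate 2 lists, where it is taken at the summit, it passed 3 at 204 to 295 tRNA genes.

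Most tRNA genes had a peak in nearly every list or in none. A peak was present in all 7 lists at 167 genes (26.7%), against 10.2% of all windows, and in 6 lists at 183 (29.3%). No list had a peak at 142 genes (22.7%), against 57.3% of all windows, and 103 of the 142 had windows that were not unique. A peak in 1 to 5 lists was present at 133 genes. The shares of all windows with a peak in 6 lists and in 1 to 5 lists were not counted. Most genes with 6 peaks lacked E2FC alone. Of the 340 genes with a peak in all 6 lists of E2FA, E2FB and RBR, 167 also had an E2FC peak (49.1%) and 173 did not. An E2FC peak with no peak in any other list was found at 2 genes.

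**Figure D1:**
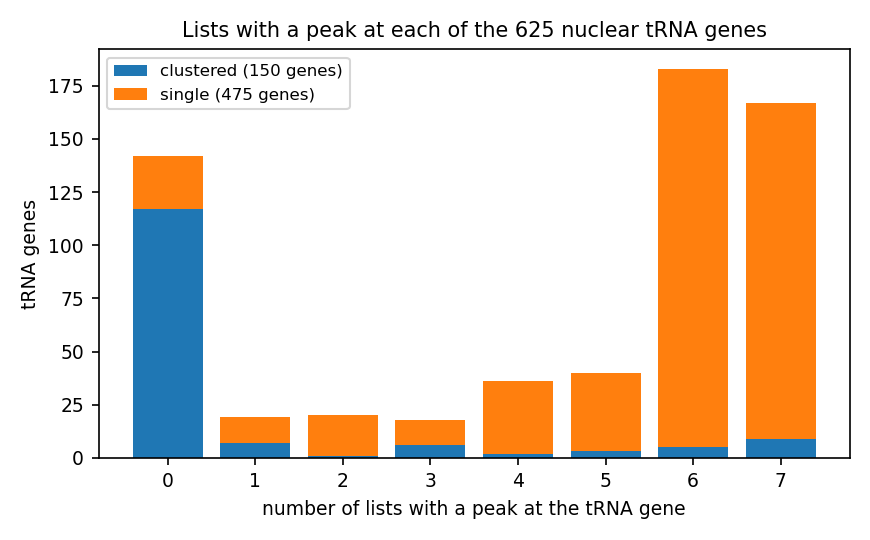
Number of the 7 lists (x axis, 0 to 7) with a peak at each tRNA gene and number of tRNA genes (y axis), with clustered genes in blue and single genes in orange. Of the 142 genes with no peak, 117 are clustered, and 336 of the 350 genes in 6 or 7 lists are single.

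The 2 libraries of a protein shared most of their tRNA genes. RBR had a peak in both replicates at 439 tRNA genes, which is 93.4% of the genes with a peak in either. E2FB had 381 (85.0%) and E2FA had 361 (83.2%). The lists of different proteins also overlapped. Of the tRNA genes with an E2FA peak in replicate 2, 98.8% had an RBR peak in the same replicate, and of those with an RBR peak, 89.1% had an E2FA peak. In replicate 1 the E2FC genes were nested in the others. Of the 191 tRNA genes with an E2FC peak, 95.8% had an RBR peak, whereas 39.8% of the genes with an RBR peak had an E2FC peak. Over all windows, an RBR peak was present in 28.8% in each replicate. The overlap between lists over all windows was not counted. Whether the agreement is particular to tRNA genes was therefore not tested.

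Peaks at tRNA genes lay near the middle of their lists in strength. Within each list, peaks were ranked by the authors' fold enrichment, a ratio to the background estimated within that library, which is an average over the peak in replicate 1 and a value at the summit in replicate 2. The median percentile of the peaks at tRNA genes lay between 48.9 (E2FC replicate 1) and 66.4 (RBR replicate 1), where 50 is the middle of the list by definition. For tRNA genes without a nearby TSS it lay between 48.3 and 60.2. Among the 1000 strongest peaks of a list, 9 to 24 overlapped a tRNA window, and 1 to 8 overlapped the window of a tRNA gene without a nearby TSS. Peaks at tRNA genes made up 0.752% of the E2FC list and between 1.38% and 1.66% of the other 6.

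The share of tRNA genes with a peak was lower without a nearby protein-coding TSS than with one in every list. Without a TSS within 500 bp the share was 23.9% to 58.9% (median 50%), and with one it was 40.3% to 95.3% (median 91.3%). The difference, without minus with, lay between -16.4 points (E2FC) and -44.5 points (E2FA replicate 2). Just inside the limit, 15 tRNA genes lay 401 to 500 bp from a TSS and had a peak in a median of 7 lists. Just outside it, 19 genes lay 501 to 600 bp away and had a peak in a median of 6 lists.

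Many genes without a nearby TSS belong to arrays in which reads cannot be placed, so the comparison was repeated on single genes with unique windows. Of these, 222 had no TSS within 500 bp. They were set against 174898 windows of equal length that were also unique, had no TSS within 500 bp and touched no tRNA window. The windows were not matched for their position inside or between genes. The tRNA genes had an RBR peak in 90.5% of cases in replicate 1 (exact 95% interval 85.9% to 94.0%), against 22.9% of these windows. In RBR replicate 2 the shares were 86.0% and 20.8%. E2FA peaks were found at 75.2% of the tRNA genes in replicate 1 and 72.5% in replicate 2, against 27.0% and 14.5% of the windows. E2FB peaks were found at 75.2% in replicate 1 and 79.3% in replicate 2, against 20.9% and 16.2%. E2FC stood apart, with a peak at 34.2% of the tRNA genes (28.0% to 40.9%), against 19.5% of the windows. In these lists tRNA genes without a nearby protein-coding TSS therefore lay 14.8 to 67.7 points above these windows.

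At the 237 single tRNA genes with unique windows and a TSS within 500 bp, the shares were 85.7% to 99.2% in the 6 lists of E2FA, E2FB and RBR. Equal unique windows that had a TSS within 500 bp and touched no tRNA window gave 49.5% to 62.8%. E2FC again gave the smallest difference, 41.8% (35.4% to 48.3%) against 35.2%. All 7 lists had a peak at 27.0% of the 222 genes without a TSS, against 7.1% of their windows, and at 41.4% of the 237 genes with one, against 23.3% of theirs. The intervals cover counting error only, and genes of 1 family are not independent.

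**Figure D2:**
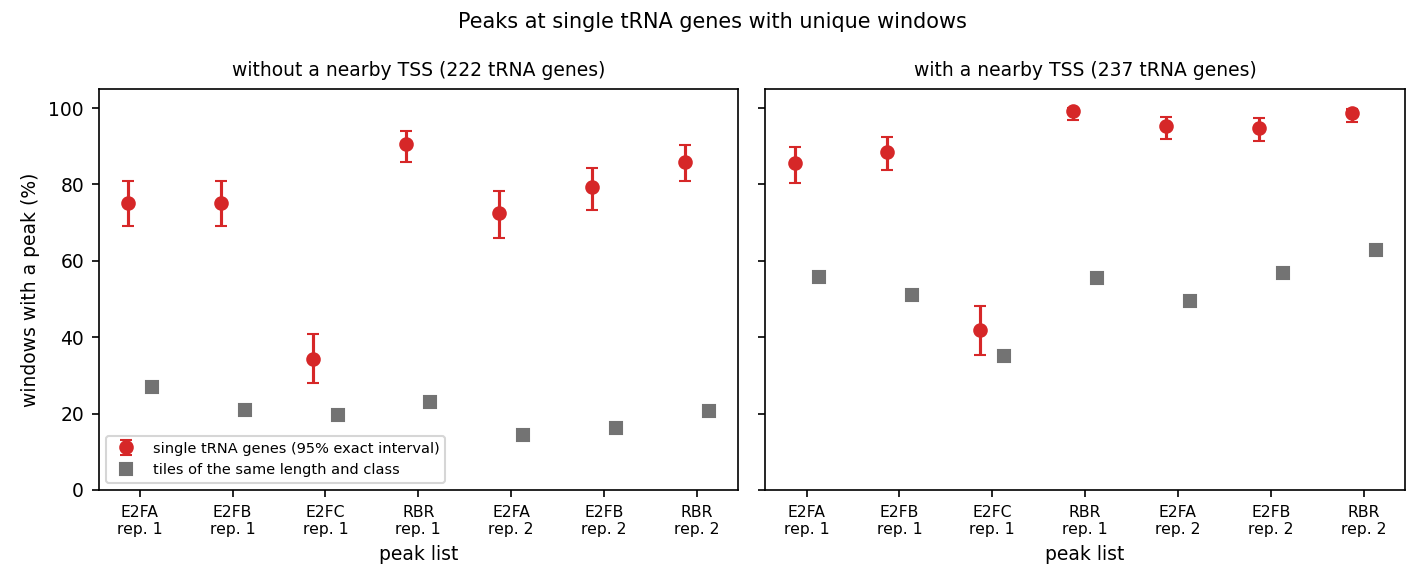
Share of single tRNA genes with unique windows that have a peak in each list (y axis, %; red points with exact 95% intervals) and of equal-length windows of the same class (grey squares), without (left) and with (right) a protein-coding TSS within 500 bp. The red points lie above the grey squares in all 7 lists on both sides, by the least in E2FC.

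The median excess over the lists did not fade with distance from the TSS between 501 and 5000 bp. Single tRNA genes with unique windows had a peak in a median over the lists of 74.6% of cases at 501 to 1000 bp from the TSS (59 genes), 79.5% at 1001 to 2000 bp (88 genes) and 75.7% at 2001 to 5000 bp (70 genes). The equal windows had medians of 24.2%, 21.6% and 22.9% at the same distances. Only 5 tRNA genes lay farther out, with a median of 40.0%, and their windows had 6.24%. Closer than 100 bp the median was 94.9%, against 64.9% of windows. E2FC had a peak at 39.0% of the tRNA genes at 501 to 1000 bp, against 20.1% of windows, at 30.7%, against 18.6%, at 1001 to 2000 bp, and at 32.9%, against 22.9%, at 2001 to 5000 bp. Closer than 100 bp it had a peak at 31.6% of these 117 tRNA genes (23.3% to 40.9%), against 42.2% of windows. Only in this bin did tRNA genes have fewer E2FC peaks than the windows. At 101 to 250 bp the E2FC shares were 51.9% and 39.4%, and at 251 to 500 bp they were 51.2% and 28.5%. These E2FC values come from 1 library.

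**Figure D3:**
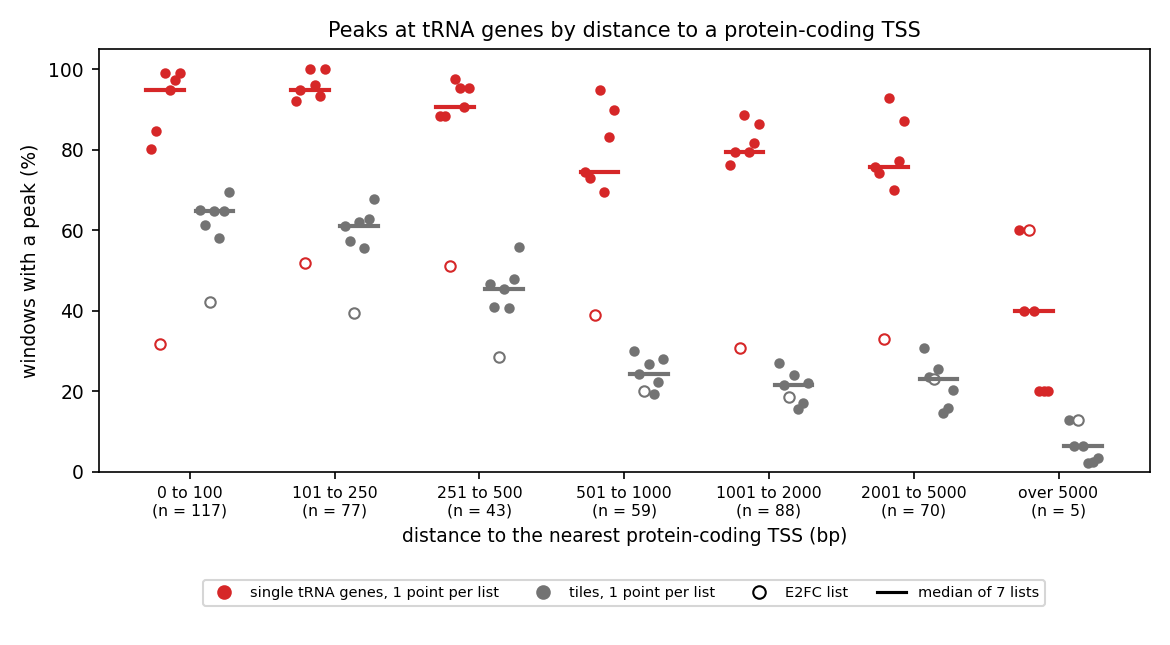
Share of windows with a peak (y axis, %) by distance to the nearest protein-coding TSS (x axis, bp), for single tRNA genes with unique windows (red) and equal-length windows (grey), with 1 point per list, open points for E2FC and lines at the median of 7 lists. The medians for tRNA genes stay between 74.6% and 79.5% from 501 to 5000 bp, where those of the windows lie between 21.6% and 24.2%.

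Other genes for small RNAs, scored by the same rule, did not all have peaks. A peak was found at a median over the lists of 59.8% of the 82 snRNA genes (30.5% to 70.7%), which encode spliceosomal RNAs, and at 50.5% of the 287 snoRNA genes (7.67% to 61.3%), which guide RNA modification. The 326 miRNA genes, which are read by RNA polymerase II, had a median of 28.2% (17.2% to 37.7%), near the 26.4% of all windows. The distance of these genes to a protein-coding TSS, the length of their windows and the uniqueness of their sequence were not matched.

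Clustered tRNA genes had few peaks. The share of clustered genes with a peak was 9.33% to 16.0%, against 37.3% to 92.0% of single genes, and the difference, clustered minus single, lay between -27.9 points (E2FC) and -76.7 points (RBR replicate 1). The largest cluster holds 81 genes on chromosome 1 (chr1:21268787-21308471, from AT1G56730 to AT1G57530), 54 for tRNA-Tyr with the anticodon GTA and 27 for tRNA-Ser with AGA. It spans 39685 bp and has no protein-coding TSS within 500 bp of any member. None of its genes had a peak in any list, and the share of unique words in their windows had a median of 0 and reached at most 41.3%, so a peak was hardly detectable there. For these genes, clustering and the placement of reads cannot be told apart.

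The proline arrays differ from it, because their windows are largely unique. The cluster of 11 tRNA-Pro genes on chromosome 1 (chr1:10096951-10102064, from AT1G28820 to AT1G28920; 9 with the anticodon TGG and 2 with AGG) also had no peak in any list, although its windows had a median of 97% unique words. Neighbouring arrays of 4, 5 and 6 proline genes lie within the same stretch of chromosome 1. The array of 4 had no peak, the array of 5 had E2FB peaks at 2 genes, and the array of 6, from AT1G28930 to AT1G28990, had RBR peaks at 5 genes in replicate 1 and 4 in replicate 2 and E2FB peaks at 2 and 5. The array of 9 proline genes on chromosome 2 (AT2G33890 to AT2G33970) had at most 3 genes with a peak in any list.

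Clustered genes with unique windows thus split by amino acid. The proline genes lie mostly in larger arrays than the others. On chromosome 1, the proline clusters of 2 (AT1G45238 to AT1G45240), 3 (AT1G45242 to AT1G45246) and 4 genes also had no peak in any list. The parts of amino acid and array size in this split were not tested. Of the 38 for proline, 26 had a peak in no list, and the share with a peak was 0 to 18.4%. Of the 20 for other amino acids, each had a peak in at least 1 list and 9 had one in all 7, with a share of 65% to 95% (median 80%). These 20 lie in small clusters such as the pair AT3G59923 and AT3G59926 (tRNA-Val and tRNA-Asp) and the pair of leucine genes AT4G11213 and AT4G11216, where all 7 lists had a peak at both genes. Of the 39 genes with unique windows and no peak in any list, 29 were for proline and 26 were clustered. At the 25 single proline genes with unique windows, the median share over the 6 lists of E2FA, E2FB and RBR was 78.0%.

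The summits of replicate 2 lay close to the tRNA genes. Among tRNA genes with a peak, the nearest summit lay a median of 114 bp from the gene midpoint in the RBR list (449 genes), 97 bp in E2FB (427 genes) and 94 bp in E2FA (405 genes). At tRNA genes without a nearby TSS the medians were 97.5, 84 and 84.5 bp in the same order of proteins. Equal windows without a nearby TSS that had a peak gave 341, 297 and 266 bp, and protein-coding TSSs gave 95, 91 and 95 bp. By this measure the summits were centred on tRNA genes about as closely as on protein-coding TSSs.

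They were centred beside the gene and not on it. Of the summits nearest to tRNA genes, 13.1% (E2FA), 8.90% (E2FB) and 8.46% (RBR) fell inside the gene, whereas 23.4%, 24.1% and 23.1% of those nearest to a protein-coding TSS fell within the same distance of it. Summits were counted in bins of 25 bp around the midpoints of the 222 single genes with unique windows and no nearby TSS. In E2FB, 61 summits fell in the bins centred 50 to 100 bp upstream, 21 in the bins centred within 25 bp of the midpoint and 22 in those centred 50 to 100 bp downstream. RBR had 62, 19 and 26 summits in these bands, and E2FA had 36, 25 and 33. Around the 27444 protein-coding TSSs the central bins held the most, for instance 4371 summits of E2FB, against 3332 upstream and 2463 downstream. Words of 76 bases centred on the midpoint were unique in 49.5% of the single genes with unique windows, and those centred 25 bp away or more in at least 99.8%. The part of this in the position of the summits was not tested.

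**Figure D4:**
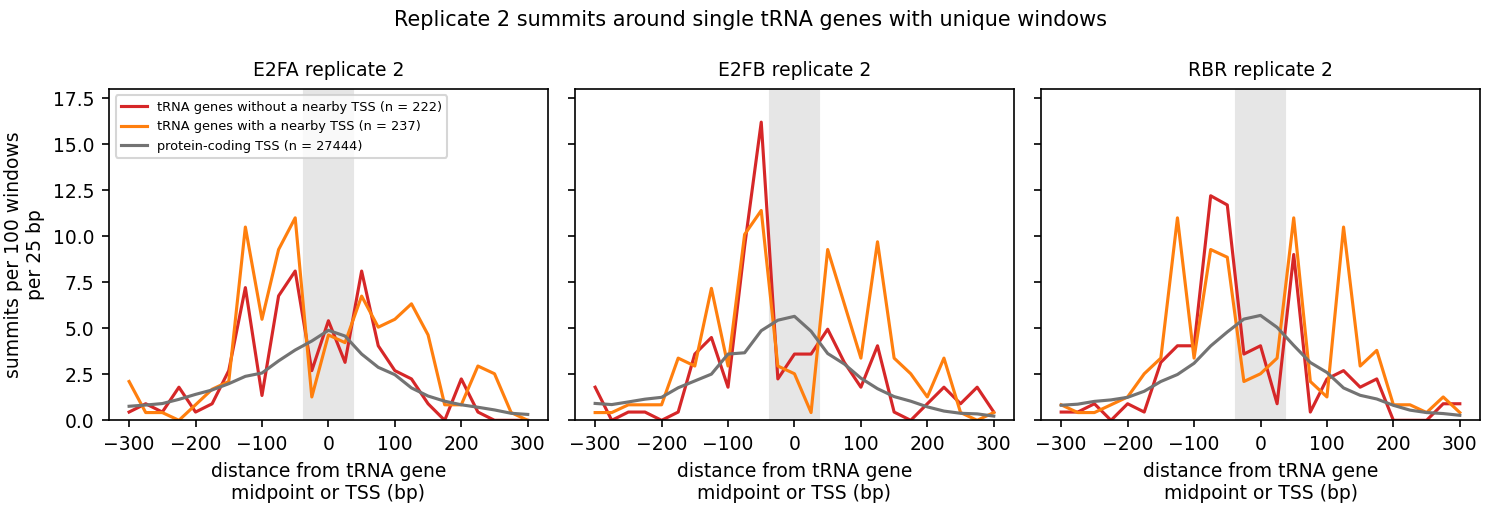
Summits of the replicate 2 lists per 100 windows in steps of 25 bp (y axis) by distance from the tRNA gene midpoint or the TSS (x axis, bp, negative upstream), for single tRNA genes with unique windows without (red) and with (orange) a nearby TSS and for protein-coding TSSs (grey). The grey band marks the length of a median tRNA gene. At tRNA genes without a TSS the E2FB bins hold 27.5 summits per 100 windows upstream and 9.46 at the centre, and at TSSs they hold 12.1 and 15.9.

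At single tRNA genes with unique windows and a nearby TSS, the tRNA midpoint and the TSS lay about equally close to a summit. The nearest summit of each was searched separately, so the 2 summits can differ. In E2FA replicate 2 the midpoint was closer to its nearest summit than the TSS was to its own at 124 of 226 genes (54.9%). In E2FB the count was 111 of 225 (49.3%), and in RBR it was 113 of 234 (48.3%).

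The strongest tRNA gene peaks away from a TSS did not all have their summit at the gene. Among the 66 genes with a peak in all 7 lists and no nearby TSS, the 10 with the highest median percentile of fold enrichment had medians of 89.6 to 99.6. They encode tRNAs for aspartate, leucine, alanine, serine, methionine, isoleucine, proline and valine. At 6 of the 10 at least 1 of the 3 replicate 2 summits lay inside the extended window, at 1 of these all 3 did, and at the other 4 genes none did. The highest of all, AT2G39860 (tRNA-Asp), had replicate 1 fold enrichments of 2.52 (RBR), 2.82 (E2FB), 3.56 (E2FA) and 2.45 (E2FC) and replicate 2 fold enrichments of 5.10 (RBR), 25.9 (E2FB) and 25.4 (E2FA). Its E2FA and E2FB summits lay at -2576 and -2563 bp, so these values belong to a broad peak whose maximum is not at the tRNA gene.

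AT5G46325, the leucine gene printed above, was the exception. It lies 1188 bp from the TSS of FLS2, the receptor for bacterial flagellin. Its replicate 1 fold enrichments were 2.55 (RBR), 2.61 (E2FB), 2.70 (E2FA) and 1.99 (E2FC), which are percentiles of 98.4, 98.9, 95.4 and 84.7. In replicate 2 they were 6.01 (RBR), 6.75 (E2FB) and 6.65 (E2FA), with percentiles of 95.6, 96.2 and 96.6. The summits lay 127, 53 and 51 bp downstream of the midpoint in that order.

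Among genes without a nearby TSS, the 5 whose summits were closest to the midpoint were glycine, serine, alanine and arginine genes. AT1G04320, the glycine gene printed above, had its RBR summit at -1 bp, its E2FB summit at 8 bp and its E2FA summit at 32 bp. Its fold enrichments in replicate 2 were 2.08, 2.06 and 1.85 for the same proteins, in percentiles 17.9, 11.5 and 3.05 of their lists, while in replicate 1 its peaks were in percentiles 65.7 (RBR), 49.6 (E2FB) and 79.8 (E2FA). AT3G07115 (tRNA-Ser), AT2G03490 (tRNA-Ala), AT3G09505 (tRNA-Arg) and AT3G46585 (tRNA-Gly) followed, with all summits within 49 bp. Their replicate 2 percentiles ran between 7.96 and 72.6.

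Among genes with a peak in all 7 lists and a nearby protein-coding TSS, 5 were chosen by the highest median percentile. Their medians were 98.5 to 99.7. AT5G02815 (tRNA-Ser, anticodon TGA) lies 73 bp from the TSS of RHL2, which encodes a subunit of DNA topoisomerase VI needed for endoreduplication. Its replicate 1 fold enrichments were 2.35 (RBR), 3.26 (E2FB), 3.54 (E2FA) and 2.72 (E2FC), those of replicate 2 were 7.36 (RBR), 15.5 (E2FB) and 18.2 (E2FA), and its lowest percentile was 94.9. AT1G15650 (tRNA-Ser, anticodon AGA) lies 44 bp from the TSS of CENP-C, which encodes a protein of the centromere, and AT3G21475 (tRNA-Pro) lies 100 bp from AT3G21480, which encodes a DNA repair protein with a BRCT domain. The other genes of this group were AT4G02055 (tRNA-His), 104 bp from STP7, a sugar transporter gene, and AT3G27845 (tRNA-Pro), 78 bp from RPL12-C, a ribosomal protein gene. At AT3G27845 the summits lay at -74 bp (RBR), -92 bp (E2FB) and -97 bp (E2FA). At all 5 genes the 3 summits lay inside the extended window, between -120 and 170 bp from the midpoint, and whether they belong to the tRNA gene or to the protein-coding gene cannot be told apart.

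The E2F consensus TTNNCGNN, with each N restricted to C or G and both strands searched, occurs inside many tRNA genes as part of the tRNA sequence. It was found in the extended window of 95 tRNA genes (15.2%), against 4.66% of equal windows, and inside the gene itself in 68. Of these 68, 66 encode tRNAs for aspartate, glutamate or glycine. In 65 of the 68 a match reached into the end of the B box, with most of its bases beyond the box. It was present in 25 of the 26 aspartate genes and in 22 of the 23 glycine genes with the anticodon GCC. Aspartate genes are shown here with 30 bases on each side and the consensus in capitals, because they share the internal matches and differ in peaks. AT2G39860 (chr2:16639750-16639881, minus strand) and AT5G14495 (chr5:4673870-4674001, plus strand) had a peak in all 7 lists. AT5G32017 (chr5:11785025-11785156, plus strand) had a peak in none.
AT2G39860: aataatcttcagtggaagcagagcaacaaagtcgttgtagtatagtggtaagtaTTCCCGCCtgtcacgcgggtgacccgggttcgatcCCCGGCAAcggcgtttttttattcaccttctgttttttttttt
AT5G14495: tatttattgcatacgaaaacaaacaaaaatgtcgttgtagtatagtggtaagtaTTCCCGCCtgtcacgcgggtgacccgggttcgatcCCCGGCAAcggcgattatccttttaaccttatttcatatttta
AT5G32017: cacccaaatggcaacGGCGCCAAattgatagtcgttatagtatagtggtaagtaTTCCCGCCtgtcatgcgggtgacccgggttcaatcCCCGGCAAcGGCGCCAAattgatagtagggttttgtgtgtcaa

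AT5G32017 held 4 matches in its window, which was 100% unique, and had no peak in any list. It lies 148417 bp from the nearest protein-coding TSS, the farthest of the genes with a unique window and no peak. AT2G33900 and AT2G33920, both of the proline array on chromosome 2, came next at 7563 and 6844 bp.

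Over all tRNA genes, the consensus was in the window of 24% of the genes with a peak in all 7 lists, 14.9% of those with a peak in 1 to 6 lists and 5.63% of those with none. Without a nearby TSS it was in 22.7% of the genes with a peak in all 7 lists and 5.26% of those with none, and these groups with no peak hold the large arrays. Among single genes with unique windows and no nearby TSS, a consensus inside the gene went with a higher share in some lists and a lower one in others. Of the 222 single genes with unique windows and no nearby TSS, 33 had a match inside the gene and 183 had none in the window. An E2FA peak was present at 72.7% of the genes with an internal match in replicate 1 and 75.8% in replicate 2, against 75.4% and 71.0% of the genes with none. For E2FB the shares were 66.7% and 78.8%, against 77.0% and 79.2%, for E2FC 30.3%, against 34.4%, and for RBR 81.8% and 87.9%, against 92.3% and 85.2%. Where the only match lay in the flank and a TSS was near, 11 of 13 genes had a peak in all 7 lists (84.6%), against 75 of 191 genes with no match (39.3%). Away from a TSS such a flank match was present at 6 genes, of which 3 had a peak in all lists.

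The share of genes with an E2FC peak was uneven among the amino acids. Among single genes with unique windows, the share with an E2FC peak was highest for leucine (25 of 33, 75.8%) and lowest for phenylalanine (2 of 16, 12.5%). The median over the other 6 lists was 97% for leucine and 93.8% for phenylalanine. Histidine (6 of 10), serine (18 of 32), aspartate (12 of 23) and alanine (16 of 31) followed leucine in E2FC. All 25 leucine genes with an E2FC peak had a peak in every other list, as did 167 of the 191 such genes over all tRNA genes. Without a nearby TSS, 9 of 15 leucine genes had an E2FC peak (60%), against 34.2% of all such tRNA genes, and the share was as high or higher for histidine (3 of 4), isoleucine (6 of 10) and asparagine (3 of 5). Of the 33 leucine genes, 31 had no E2F consensus in the window, and 23 of these had an E2FC peak. These classes were ranked by their values, and no test was made of the ranking.

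**Figure D5:**
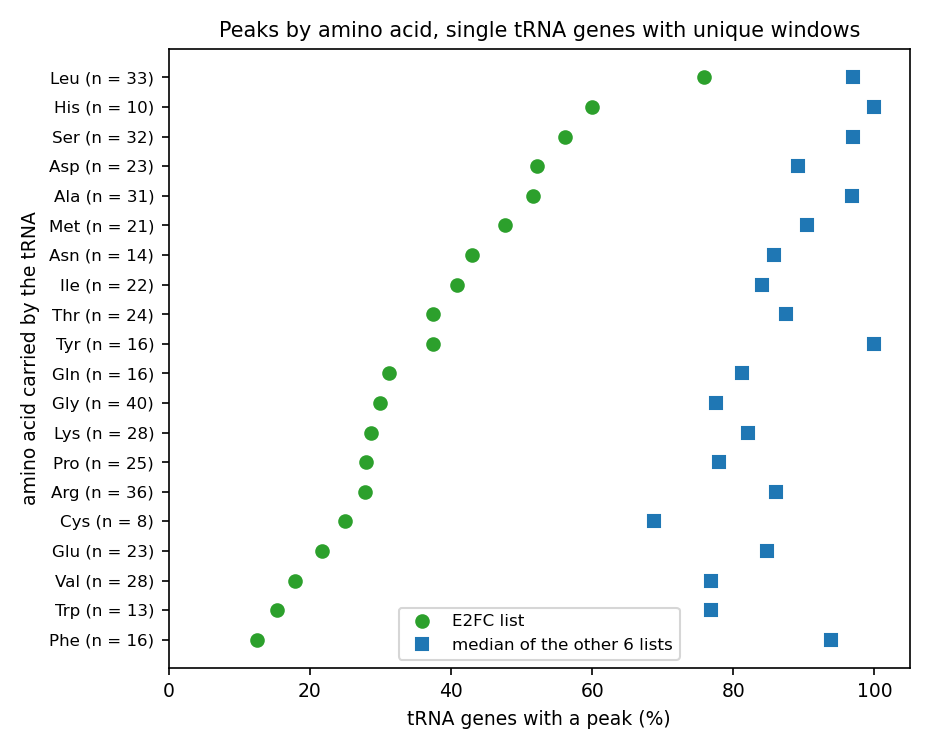
Share of single tRNA genes with unique windows that have a peak (x axis, %) by the amino acid the tRNA carries (y axis, with the number of genes), in the E2FC list (green circles) and as the median of the other 6 lists (blue squares). E2FC ranges between 12.5% and 75.8%, and the median of the other lists, which are nearer their upper limit, lies between 68.8% and 100%.

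Genes without peaks were concentrated in the classes that form arrays. Of the 76 tyrosine genes 58 had no peak, of the 64 serine genes 32 and of the 66 proline genes 32. Outside the clusters of 10 or more genes, 4 of 22 tyrosine genes, 5 of 37 serine genes and 21 of 55 proline genes had no peak. By chromosome, a peak was absent at 110 of the 238 genes on chromosome 1, or 18 of 146 outside the clusters of 10 or more genes. It was absent at 25 of the 95 on chromosome 2, and at 2 of 92, 2 of 77 and 3 of 123 on chromosomes 3, 4 and 5. The windows also differed, being unique at 154 of 238, 72 of 95, 92 of 92, 76 of 77 and 123 of 123 genes in the order of the chromosomes. The part of this in the missing peaks was not tested.

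The proteins that read tRNA genes were scored at their own TSS. The annotation names 17 protein-coding genes as subunits of RNA polymerase III or as transcription factors IIIA, IIIB or IIIC. Windows of 473 bp at their TSS had a replicate 1 peak at 10 of them in the RBR list, 10 in E2FB, 9 in E2FA and 4 in E2FC, and a replicate 2 peak at 12 in RBR, 12 in E2FB and 10 in E2FA. All 7 lists had a peak at TFIIIA (AT1G72050), which binds 5S ribosomal RNA genes, at AT1G17450, a B-block binding subunit of TFIIIC, and at AT3G49410, a TFIIIC subunit. AT3G49410 had replicate 2 fold enrichments of 5.14 (RBR), 9.69 (E2FB) and 7.55 (E2FA). No list had a peak at 5 genes, which are copies annotated as B-block binding proteins on chromosome 1 (AT1G58766, AT1G59077, AT1G59453, AT1G59460 and AT1G59470), and at 2 of these none of the 76-base words was unique. Protein-coding TSSs in general had a peak in a median over the lists of 63.9% of cases, and in E2FC in 41.6%. All 7 lists had a peak at 3 of the 17 genes. They had one at 23.3% of unique windows that had a TSS within 500 bp and touched no tRNA window. This share was not counted at the TSSs themselves.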

How the data were processed

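Chromatin immunoprecipitation with an antibody to GFP was followed by sequencing, and 7 peak lists, 1 per library, were used. Per the submitters' processing notes, Trimmomatic 0.38, Bowtie2 2.3.5, SAMtools 1.9 and MACS2 2.2.7.1 were used, with the TAIR10 genome. The replicate 1 lists are broad peaks and the replicate 2 lists are narrow peaks, so replicate, peak format and batch cannot be told apart. The deposited columns hold, as the authors' peak caller wrote them, a fold enrichment (a ratio), a −log10 p-value, a −log10 q-value and a display score, which was not used. The replicate 2 lists also hold the summit position. The peak lists hold no library depth, and the depths the study states were not used here, and no input or untagged library was analysed here.

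A tRNA gene had a peak if at least 1 bp of a peak overlapped the gene extended by 200 bp. Windows of 473 bp tiling chromosomes 1 to 5 gave the background. Uniqueness was the share of 76-base words occurring once in the genome, with a minimum of 90%. Intervals are exact (Clopper-Pearson) and cover counting error only, since neighbouring windows share peaks. No test between the proteins was run. Python 3.11.15, numpy 2.4.6, pandas 2.3.3, scipy 1.17.1 and matplotlib 3.10.9 were used, and the scripts were tested on simulated data.

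Genes named are the 10 and 5 with the highest median percentile of fold enrichment among those with a peak in all 7 lists, without and with a nearby TSS, each cluster of 10 or more genes, the 3 genes with unique windows and no peak that lie farthest from a TSS, and the 5 without a nearby TSS whose summits lie closest. Other genes named were chosen after their values were seen. The neighbourhood of 1 small cluster is not reported here. The members and lists were chosen with earlier results of these data known. The alternatives changed the extension, the overlap, the peak threshold, the TSS limit, the cluster gap, the windows and the replicates, and those without the large clusters or without E2FC were chosen after seeing the data. Sequences are from RefSeq, TAIR10.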

Additional observations from a re-analysis of the deposited data

How the results depend on the processing

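Of 89 alternatives, 44 moved a value by less than the tolerance, which was 1 SD between replicates for shares, 1 SD between the 3 replicate 2 lists for distances and a factor of 1.5 for counts of genes, and 45 moved it by more, and 14 of the 89 were chosen after seeing the data. No paired analysis was possible because the results are counts, shares and medians that come from no test. Shares are medians over the lists. With no extension, 111 genes had a peak in all lists, and the shares were 46.8% without a nearby TSS and 12.0% for clustered genes. The clustered share was 14.7% with 100 bp added and 16.0% with 500 bp added, where the share without a TSS was 51.9%. Requiring at least 50% of the window to be covered gave 57.4% of all tRNA genes, 43.0% without and 86.2% with a TSS, 10.7% of clustered and 72.8% of single genes, and 86 genes in all lists. With q under 0.01 the shares were 46.5% without a TSS and 11.3% for clustered genes. With fold enrichment over 3 as well, they were 0.480% of all, 0.269% without and 0.791% with a TSS, 0 of clustered and 0.632% of single genes, with 0 genes in all lists, 292 in none and a median summit distance of 121 bp. That distance was 84.5 bp for genes without a nearby TSS. Unique windows alone gave 77.8% of all, 68.4% without a TSS, 39.7% of clustered genes and 39 genes in no list. Outside the clusters of 10 or more genes the values were 76%, 66.4% and 39.7%, with 50 genes in no list. A TSS limit of 250 bp gave 53.7% without a TSS, and 1000 bp gave 46.0% without and 84.3% with one. A cluster gap of 500 bp gave 12.4% of clustered genes and 2000 bp gave 20.2%. Without E2FC, 340 genes had a peak in all lists. Leaving out replicate 1 or replicate 2 gave 63.4% to 68.3% of all, 49.3% to 52.4% without and 84.0% to 91.7% with a TSS, 13.7% to 16.0% of clustered and 78.9% to 84.8% of single genes, 179 to 390 genes in all lists and 152 to 169 in none. The peak lists hold no depth, so its bearing on these values was not tested.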
